A study of Caenorhabditis elegans with 2 samples.

Results

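The 376 peaks described here are the autosomal intergenic distal peaks of LIN-32, a transcription factor of the nematode Caenorhabditis elegans. They were chosen by measured signal and by position: of the peaks called on both replicates together, the 2000 strongest on the nuclear chromosomes were taken, and 376 of these 2000 (18.8%, exact 95% interval 17.1 to 20.6%) had a summit on an autosome, more than 500 bp from any tRNA gene, outside every protein-coding transcript and outside the stretch from 1000 bp upstream to 200 bp downstream of every coding 5′ end. The study mapped LIN-32 by ChIP-seq, the sequencing of DNA recovered with a protein by immunoprecipitation, in 2 biological replicates of 1 group, and no second condition was compared. The embryos were of strain OP740. Its transgene, wgIs740, fuses lin-32 to TY1, EGFP and 3xFLAG tags and carries unc-119(+), and the animals have the unc-119 allele tm4063. They were mixed-stage embryos of both sexes collected by egg bleaching, with a labelled age of 3 h, and the tagged protein was pulled down with an antibody to GFP. The tag sits at the C-terminus per the labels, which do not give the copy number of the transgene, the sequence that drives it or the state of the endogenous lin-32 gene. Whole embryos were used, so a peak shared by many cells and a strong peak in a few cells cannot be told apart.

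LIN-32 is an Atonal-type basic helix-loop-helix (bHLH) protein, one of the proneural factors that start neuronal fates and work as dimers with a ubiquitous E protein, HLH-2 in the worm. In C. elegans it is needed for touch receptor neurons, several ciliated sensory neurons and the rays of the male tail. Such dimers bind E-boxes, short palindrome-like words of the form CANNTG, and Atonal proteins favour CAGATG and CAGCTG, called Atonal-type hexamers here. A distal peak can lie upstream of both flanking genes (divergent genes), upstream of 1 of them (tandem genes) or downstream of both (convergent genes).

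The sequences at the strongest distal peaks fell into a set with and a set without an Atonal-type hexamer. The following windows reach 50 bp to each side of the summit (build ce11, identical to WBcel235, with letters from the RefSeq assembly), and are the 3 strongest with a hexamer on chromosomes II to V. Capitals mark the hexamers, CATCTG being CAGATG read on the other strand.
ZK930.6/ZK930.2, chrII:11890716-11890816, plus strand: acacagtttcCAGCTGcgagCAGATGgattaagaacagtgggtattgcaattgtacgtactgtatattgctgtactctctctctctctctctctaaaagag
srsx-8/cdc-25.2, chrV:1572754-1572854, plus strand: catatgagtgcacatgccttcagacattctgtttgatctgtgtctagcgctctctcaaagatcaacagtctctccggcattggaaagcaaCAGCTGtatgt
let-765/mdh-2, chrIII:6605599-6605699, plus strand: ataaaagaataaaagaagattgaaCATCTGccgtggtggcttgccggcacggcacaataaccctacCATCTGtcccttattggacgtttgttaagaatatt

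Shorter stretches of 26 bases show the hexamer nearest to the summit at members upstream of cell cycle, cell death, Wnt, adhesion and neuronal genes that are described further on. Each is written so that the hexamer, in capitals, reads CAGATG or CAGCTG. The egl-46 stretch is from the egl-46 member of signal 143. The strongest egl-46 member, of signal 407, held no Atonal-type hexamer.
cki-1, chrII:7809675-7809700, minus strand: ggaaaagagcCAGATGttcgaaacgt
egl-1, chrV:14438514-14438539, plus strand: tatctggcagCAGCTGttgatgtagt
wrm-1, chrIII:5721028-5721053, plus strand: catatggagaCAGATGttttctgaag
prkl-1, chrIV:6998096-6998121, plus strand: catcttactgCAGATGtccacaggtg
sax-7, chrIV:8055365-8055390, minus strand: caaacggcgaCAGATGgtcatgaaga
egl-46, chrV:6685737-6685762, plus strand: agtcgaaaagCAGATGttttagtggc

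The strongest members without a hexamer on the same chromosomes lie at small nucleolar RNA (snoRNA) genes, and are shown on the strand of the snoRNA. The second group of lines gives the 100 bases before the 5′ end of 4 further snoRNA genes beside members. Capitals mark the word GTTCNANNC, taken from the B box, the internal promoter element by which RNA polymerase III recognises tRNA genes. The str-56/nhr-102 window and the C46C2.8 stretch hold no match.
W03C9.6/W03C9.1 summit window, chrII:11960787-11960887, plus strand: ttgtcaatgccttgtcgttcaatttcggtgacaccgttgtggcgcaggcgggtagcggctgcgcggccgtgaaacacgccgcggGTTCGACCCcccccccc
str-56/nhr-102 summit window, chrV:15873917-15874017, minus strand: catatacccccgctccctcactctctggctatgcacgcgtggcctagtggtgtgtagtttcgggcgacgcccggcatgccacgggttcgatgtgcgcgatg
F32E10.10, chrIV:7574022-7574121, plus strand: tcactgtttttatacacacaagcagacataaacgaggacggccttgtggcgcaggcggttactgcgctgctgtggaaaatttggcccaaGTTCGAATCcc
F30H5.4, chrIII:502704-502803, plus strand: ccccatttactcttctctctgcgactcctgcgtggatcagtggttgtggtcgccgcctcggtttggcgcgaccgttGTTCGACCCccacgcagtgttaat
F12F6.11, chrIV:11549865-11549964, minus strand: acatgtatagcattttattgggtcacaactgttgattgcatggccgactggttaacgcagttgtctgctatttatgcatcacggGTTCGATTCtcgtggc
C46C2.8, chrIV:9191334-9191433, minus strand: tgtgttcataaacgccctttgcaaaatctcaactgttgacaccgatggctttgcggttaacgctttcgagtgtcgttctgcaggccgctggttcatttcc

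The distal peaks had about the same median signal as promoter and intronic peaks. The pooled signal, which the authors' caller gave each peak in an unstated unit, had a median of 93.2 over the members (quartiles 77.6 and 128, range 70.5 to 801), 92.9 over the 640 autosomal promoter peaks, 92.9 over the 284 intronic peaks and 94.2 over all 2000. The median was 77.2 over the 118 exonic peaks, 129 over the 218 peaks within 500 bp of a tRNA gene and 92.0 over the other 364 peaks of the X chromosome. The signal chose the members, so these values describe them and no test was made. Members made up 6 of the 20 strongest pooled peaks, 26 of the 100 strongest and 87 of the 500 strongest. At the edge of the choice, the peak ranked 2000 had a signal of 70.45 and the peak ranked 2001 had 70.44. The weakest member, ranked 1998, had 70.47, and the next peak of the class, ranked 2004, had 70.43. The member nearest to the promoter limit lay 1015 bp upstream of a 5′ end, and the farthest promoter peak lay 999 bp away.

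Most members lay upstream of a coding gene. Of the 376 members, 339 (90.2%, interval 86.7 to 93.0%) lay upstream of at least 1 flanking gene, with 138 between divergent genes (36.7%) and the others between tandem genes (53.5% of all), and 37 lay between convergent genes (9.84%). Of the 19.4 Mb of autosomal sequence that the rule leaves eligible, 28.9% lies between divergent, 53.5% between tandem and 17.6% between convergent genes. The density was thus 24.6 members per eligible Mb between divergent genes, 19.3 between tandem and 10.8 between convergent genes. The 37 convergent members were nevertheless the stronger ones: their median signal was 129 (upper quartile 316), against 91.6 for the divergent and 92.1 for the tandem members. They made up 9 of the 20 strongest members and 15 of the 50 strongest (interval 17.9 to 44.6%), and 22 of the remaining 326 (6.75%). Some sat in very short gaps, 7 of the 37 between genes less than 500 bp apart, while the median gap over all members was 7755 bp.

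**Figure D1:**
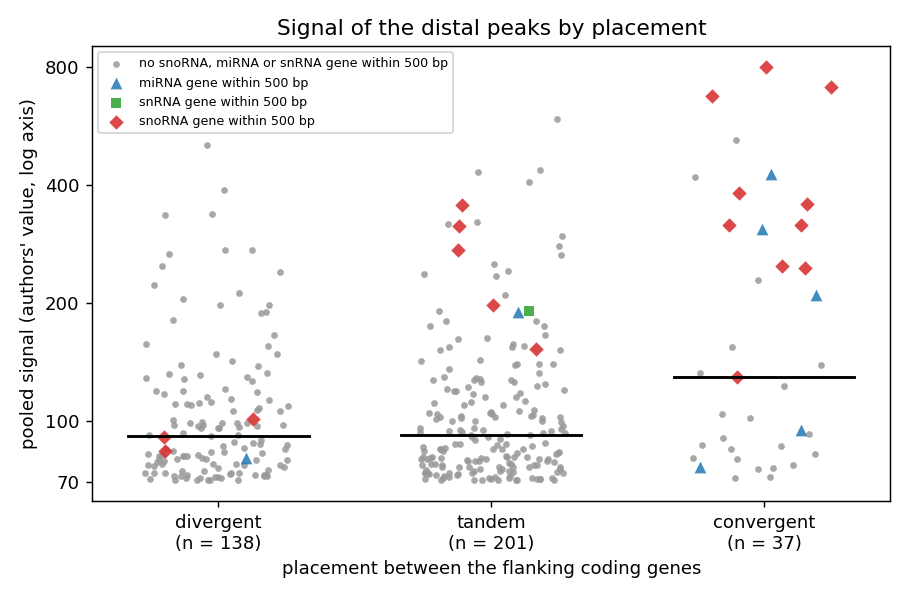
Each point is 1 of the 376 distal peaks, plotted by its pooled signal (authors' value, log axis) in the divergent, tandem or convergent column; black lines are medians (91.6, 92.1 and 129), and coloured symbols mark peaks within 500 bp of a snoRNA, miRNA or snRNA gene. The 3 highest points of all, at 801, 709.5 and 672, are convergent peaks beside snoRNA genes.

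The strongest distal peaks stood just before snoRNA genes. SnoRNAs guide the chemical modification of ribosomal RNA and related RNAs. Of the 376 members, 18 (4.79%, interval 2.86 to 7.46%) lay within 500 bp of an annotated snoRNA gene, which is true of 0.341% of the eligible sequence. In 16 of these 18 the summit lay upstream of the snoRNA, 18 to 83 bp before its 5′ end (median 51.0 bp). The first 3 members by signal were of this kind, and so were 7 of the 20 strongest and 13 of the 50 strongest (interval 14.6 to 40.3%), but none of the 94 weakest (interval up to 3.85%). Of the 62 autosomal snoRNA genes whose 5′ end lies in eligible sequence, 17 (27.4%) had a member within 100 bp of that end. SnoRNA genes were also found within 500 bp of 27 of the 640 promoter peaks (4.22%) and 29 of the 284 intronic peaks (10.2%), and of 80 of all 2000, inside the interval of the members. The share over all members was therefore near that of all ranked peaks and is not particular to the distal class.

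The strongest member stood between the 3′ ends of W03C9.6 and W03C9.1, in a gap of 246 bp, 61 bp before the snoRNA gene W03C9.9 (chrII:11960898-11960959). Its pooled signal was 801, with 384 in replicate 1, where it ranked 4, and 412 in replicate 2, where it ranked 2. Signal scales are set within each list, so ranks are the measure to compare. The next member, between ZK930.6 and ZK930.2 and 70 bp before ZK930.15, had a pooled signal of 709.5, a replicate 1 signal of 383 (rank 5) and a replicate 2 signal of 328 (rank 7). Between str-56, a chemoreceptor-type receptor gene, and nhr-102, a nuclear hormone receptor gene, the member 41 bp before T06C12.16 had a pooled signal of 672, with 337 in replicate 1 (rank 9) and 340 in replicate 2 (rank 6). All 3 thus ranked among the first 9 peaks of either replicate.

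The other snoRNA members among the 20 strongest were lower and also recurred. The member between T09A12.1 and K07H8.7, 58 bp before H09I01.2, had a pooled signal of 382 and ranked 47 in replicate 1 and 41 in replicate 2. Between T27A3.8 and nmrk-1, in a gap of 181 bp and 51 bp before T27A3.9, the signal was 357 and the ranks were 53 and 51. The member between pamn-1 and lim-7, a LIM homeobox gene, had a signal of 356 with ranks 38 and 65. It was 9579 bp upstream of lim-7 but 51 bp before the snoRNA gene T19B4.8. Between C07C7.1 and C46C2.5, 48 bp before C46C2.8, the signal was 317 and the ranks were 64 and 97. In 15 of the 18 snoRNA members both ranks were within the first 1000. When each replicate list was ranked alone, 13 of its 50 strongest distal peaks lay within 500 bp of a snoRNA gene in replicate 1, and 13 of 50 in replicate 2.

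Some of the snoRNA members held an Atonal-type hexamer and some held the B box word. A hexamer was within 50 bp in 4 of 18 (22.2%, interval 6.41 to 47.6%), near the 24.5% of all 2000 peaks. The share was 35.1% (123 of 350, interval 30.1 to 40.4%) for members away from snoRNA, snRNA and miRNA genes. The interval of the snoRNA members includes both shares. GTTCNANNC, on either strand, was in 6 of the 18 summit windows of snoRNA members and in 11 of the 350 members away from small RNA genes (3.14%). With a further G required before the word, as in the fuller B box, the counts were 3 of 18 and 4 of 350 (1.14%). All 6 matches of the shorter word in the snoRNA members read in the direction of the snoRNA. The word was chosen after these sequences were seen. Over all members it was in 18 of 376 summit windows (4.79%) and in 14 of 752 windows of the same length centred 500 bp to either side (1.86%). It was in 3.28% of promoter windows, 5.63% of intronic windows, 8.60% of all 2000 and 45.9% of the 218 windows of peaks within 500 bp of a tRNA gene. In the 100 bases before the 5′ end and on the strand of the snoRNA, it was found at 7 of the 17 snoRNA genes with a member and at none of the 45 other snoRNA genes in eligible sequence. Elsewhere on the autosomes it was less rare, and over all 296 snoRNA genes without a member it was found at 23 (7.77%). For the longer word these counts were 4 of 17, 0 of 45 and 11 of 296 (3.72%). Over all members the longer word was in 8 of 376 summit windows (2.13%), and in 1 of 752 flank windows (0.133%). A match gives the letters only, and whether LIN-32 or another protein was bound there, or whether other tagged proteins give signal at these places, was not tested.

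Another 7 members stood within 500 bp of a microRNA gene, and 5 of those were convergent. Of the 7, 3 stand before genes of the mir-51 family, microRNAs with broad expression and a role in embryonic development, written here 5′ to 3′ from RefSeq with the shared seed, bases 2 to 8, in capitals.
mir-51, chrIV:11026074-11026096, minus strand: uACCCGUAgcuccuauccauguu
mir-52, chrIV:14034024-14034047, plus strand: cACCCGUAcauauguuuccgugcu
mir-53, chrIV:11027653-11027676, minus strand: cACCCGUAcauuuguuuccgugcu

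The summit before mir-51 lay 82 bp upstream of the annotated gene, between alh-3 and hrg-5, with a pooled signal of 427 and ranks of 17 in replicate 1 and 64 in replicate 2. In the same gap the summit before mir-53 lay 108 bp upstream, with a pooled signal of 94.8 and ranks of 1026 and 788. The member at mir-52, 8 bp upstream and between irld-55 and Y37A1B.7, had a signal of 309 and ranks of 97 and 53. None of these 3 held an Atonal-type hexamer, and the one before mir-51 held the B box word. A member with CAGATG and a signal of 209.8 lay 245 bp upstream of mir-42. It shares the ZK930.6/ZK930.2 gap with the second strongest member and with another of signal 419, which had no small RNA gene within 500 bp and no hexamer. The members near mir-4805 (189), mir-231 (80.4) and mir-80 (76.2) were weaker, and mir-231 lies between the Hox genes lin-39 and ceh-13.

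Many of the convergent members stood near small RNA genes. Of the 37 convergent members, 10 were within 500 bp of a snoRNA gene and 5 within 500 bp of a miRNA gene, together 40.5%. Among the 9 convergent members in the first 20, it was 7. Without all 26 members near snoRNA, snRNA or miRNA genes, 22 of 350 members (6.29%) were convergent, and so were 2 of the 20 strongest. Those are the ZK930.6/ZK930.2 member of signal 419 and a member downstream of both lsl-1 and ztf-11, a zinc finger gene that promotes neurogenesis. This last member had a signal of 520.1, ranks of 16 and 19, and CAGATG within 50 bp, and lay 152 bp from the 3′ end of ztf-11.

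The strongest members upstream of coding genes stood before genes of varied function. The member 3132 bp upstream of unc-75, a neuronal CELF-type RNA-binding splicing factor, and downstream of C17D12.5, had a pooled signal of 587 (rank 13 in replicate 1 and 11 in replicate 2) and a pair of Atonal-type hexamers. The member 4887 bp upstream of cdc-25.2, a phosphatase gene that activates cyclin-dependent kinases, also lay 19700 bp upstream of srsx-8 and had a signal of 507 (ranks 20 and 15). Its summit lay inside the annotated span of cdc-25.2, because a transcript of that gene annotated as non-coding begins farther upstream than the coding transcripts, from which the distance is counted. Upstream of let-765 by 4476 bp, and downstream of mdh-2, a malate dehydrogenase gene, the signal was 436 (ranks 35 and 21). The member between gldi-4 and adah-1 lay 1027 bp upstream of adah-1 with a signal of 430.4 (ranks 32 and 26). Upstream of egl-46, a zinc finger gene that regulates the end of neuroblast division and neuronal fate, a member 3179 bp away had a signal of 407 (ranks 31 and 32) and CACCTG, with K11G9.5 on its other side. All of these ranked within the first 35 peaks of both replicates.

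Between egl-1, the BH3-only gene that starts programmed cell death, and F23B12.4, a member had a signal of 388 (ranks 52 and 27) and CAGCTG. It lay 6181 bp upstream of egl-1 and closer, at 2601 bp, to F23B12.4, also on the upstream side. The one between jmjd-2, a histone demethylase gene, and hmg-1.1, an HMG-box gene, had a signal of 337 (ranks 40 and 72). Between din-1, a corepressor gene of the DAF-12 receptor, and ghi-1, the signal was 335 (ranks 67 and 56). The member 5339 bp upstream of F58H1.5, and downstream of F58H1.6, had 321 (ranks 93 and 50). The member 7131 bp upstream of egl-18, a GATA factor gene, lay downstream of egl-4, a cGMP-dependent protein kinase gene, and had 318 (ranks 120 and 48). Ranks in the replicates stayed within the first 120 for every member named in these last 2 paragraphs.

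Atonal-type hexamers were found at more of the distal summits than of the promoter summits, with intervals that did not overlap. The windows of 129 of 376 members held at least 1 (34.3%, interval 29.5 to 39.3%), against 24.5% of all 2000 peaks, 21.6% of promoter peaks (138 of 640, with the whole interval under 29.5%) and 26.4% of intronic peaks (75 of 284, interval 21.4 to 31.9%). The shares were 30.2% for the other X chromosome peaks (110 of 364, interval 25.5 to 35.2%), 22.9% for exonic peaks (27 of 118, interval 15.7 to 31.5%) and 5.05% for peaks within 500 bp of a tRNA gene (11 of 218). The intervals of the intronic, X chromosome and exonic peaks overlapped that of the members. In equally long windows centred 500 bp from the summit to either side, the share was 5.05% for members, 6.64% for promoter peaks and 7.22% for intronic peaks. CAGATG was in 26.6% of member windows and 3.86% of their flanks, and CAGCTG in 10.9% and 1.20%. Of the other E-box words, CACCTG was in 11.4% of member windows and 3.19% of flanks, and CATATG in 5.59% and 1.86%, while CAACTG (5.85% and 5.72%) and CAAATG (8.24% and 8.78%) were about as frequent in both. The centre of the nearest hexamer lay a median of 15.5 bp from the summit. The GC content of the summit windows had a median of 47.5%, against 33.7% in the flanks, and its part in these shares was not tested.

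**Figure D2:**
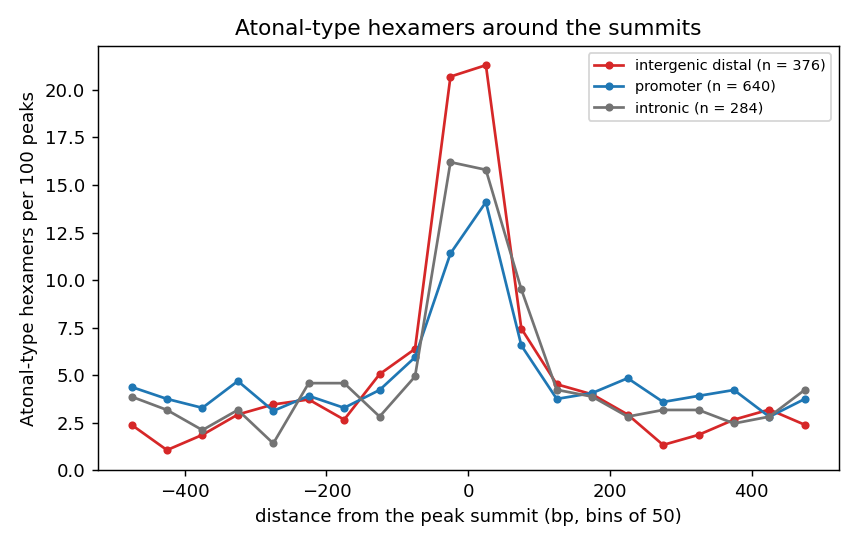
Atonal-type hexamers (CAGATG or CAGCTG, either strand) per 100 peaks in 50 bp bins by distance from the summit (bp), for the 376 distal, 640 promoter and 284 intronic peaks. The distal peaks reach 20.7 and 21.3 per 100 in the bins beside the summit, the intronic peaks 16.2 and 15.8 and the promoter peaks 11.4 and 14.1.

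Around the 111 CAGATG sites in member windows, the neighbouring bases were uneven. The base after the hexamer was G at 61 of them and T at 34, and A at 7 (6.31%), whereas it was A at 44.8% of the 29 sites in the flanks. The base before it was T at 3.60% of sites, against 34.5% in the flanks. Each site was read in its own orientation, and the flank sites are few.

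Stronger members held hexamers more often. With the members in 4 groups of 94 by pooled signal, 58.5% of the first group had a hexamer, 39.4% of the second, 25.5% of the third group and 13.8% of the last. Without members near snoRNA, snRNA or miRNA genes the counts were 50 of 74, 37 of 92, 23 of 91 and 13 of 93, and 13 of the 20 strongest remaining members had a hexamer. Divergent members had one in 41.3% (57 of 138), tandem members in 30.3% and convergent members in 29.7%. A pair or more of hexamers was found in 23 members (6.12%, against 3.75% of all 2000). None of the 10 E-box words was found in 150 members (39.9%) and in 68.0% of their flanks.

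**Figure D3:**
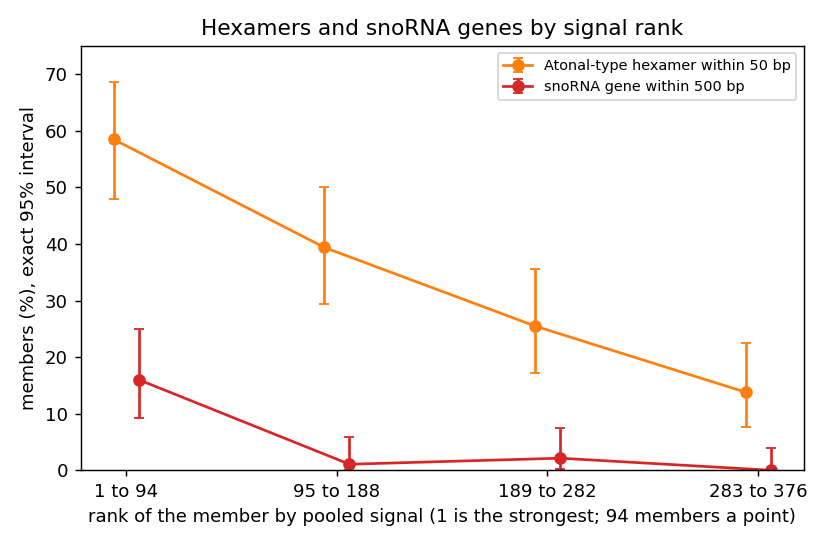
Share of members (%, with exact 95% intervals) that have an Atonal-type hexamer within 50 bp or a snoRNA gene within 500 bp, in 4 groups of 94 members by pooled signal rank. Hexamers run 58.5, 39.4, 25.5 and 13.8% from the strongest to the weakest group, and snoRNA genes are near 15, 1, 2 and 0 members of 94.

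Replicate support of the members was close to that of all ranked peaks. A summit within 100 bp was present in both replicate lists for 340 of 376 members (90.4%, interval 87.0 to 93.2%), against 90.7% of all 2000. Because the pooled signal draws on both replicates, some of this agreement is built into the choice, and nothing is read from its level. Of the other 36, a replicate 1 summit alone was found for 23 and a replicate 2 summit alone for 13, and no member lacked both. All 94 of the strongest group were matched in both lists, as were 84, 82 and 80 of the following groups of 94. The authors' IDR set (irreproducible discovery rate, a procedure that keeps peaks of stable rank) held 191 members (50.8%), against 52.1% of all 2000, and it nearly follows the pooled rank: its weakest member ranked 1039 with a signal of 92.6, and the strongest member outside it ranked 1049 with 92.2. A stricter count, of members among the 2000 strongest peaks of each replicate list, gave 177 (47.1%, against 50.7% of all 2000).

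The replicates ranked strong members alike and weak members less so. Across the 340 members matched in both lists, the replicate signals gave Spearman 0.57 and, as log2 values, Pearson 0.774. All points share the 2 libraries and were chosen on the signal of both together, so some of this pattern is built into the choice. The ranks differed more than 4-fold in 66 of the 340, of which 29 ranked higher in replicate 1. The widest gap among the 50 strongest was at the spliced-leader snRNA gene sls-2.2, between C17C3.24 and ins-13, where the member of pooled signal 191 ranked 1490 in replicate 1 and 177 in replicate 2. Upstream of hlh-3, a proneural bHLH gene, there was no member. The one on its downstream side, 1817 bp from its 3′ end, ranked 27950 in replicate 1 and 1567 in replicate 2, so it had little support from replicate 1.

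**Figure D4:**
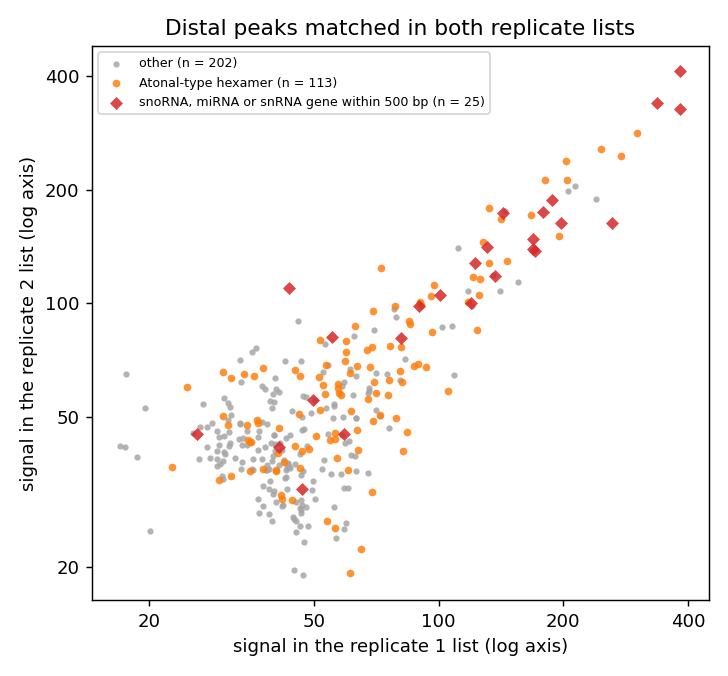
Signal in the replicate 2 list against signal in the replicate 1 list (log axes) for the 340 members matched in both, with 113 hexamer-bearing members, 25 members beside small RNA genes and 202 others marked. Members of each marked kind stand at the top right, where both signals are high together. Each kind also has members below about 100, where the signals spread apart.

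The members lay a few kilobases from the nearest 5′ ends. The nearest coding 5′ end of any gene lay a median of 2403 bp from the summit (quartiles 1500 and 3871, longest 16224 bp). For the 339 members upstream of a flanking gene, the nearer such 5′ end was 1000 to 2000 bp away in 125, 2000 to 5000 bp in 134, 5000 to 10000 bp in 64 and farther in 16. Tandem members more often stood near the 3′ end of the gene behind them: 74 of 200 (37.0%) were nearer to the 5′ end ahead, where the rule leaves out the first 1000 bp. In all, 604 of 17242 autosomal coding genes flanked a member, a background of 3.5% for the gene lists given further on, and 393 had a member upstream, 2.28%. Of these 393, 46 (11.7%, interval 8.70 to 15.3%) also had a ranked peak in the promoter, against 4.74% of all autosomal coding genes. By the rule, each of the 393 has at least 1000 bp free of coding transcripts upstream, which all coding genes need not have. The part of this in the difference was not tested.

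Many members shared a gap. The 376 members fell into 309 gaps, of which 37 held 2 members and 15 held 3, the most in any gap. The cdc-25.2 gap had members of signal 507, 132 and 97.0 at 4887, 1823 and 4148 bp upstream of the coding transcripts of that gene, all 3 inside the span of its non-coding transcript. The egl-46 gap had 407, 143 and 139 at 3179, 4138 and 1945 bp upstream. A further 3 members, of signal 279, 133 and 78.1, stood 11565, 5290 and 6887 bp upstream of ceh-43, a Distal-less type homeobox gene, with ndg-4 on the other side. The zag-1 gap, upstream of a ZEB-type zinc finger and homeobox gene that acts in neuronal differentiation, had 152, 104 and 71.4, with F28F9.2 on its other side. The cfz-2 gap, shared with slc-28.2, had 106, 81.3 and 75.8.

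The other gaps with 3 members lay between ZK930.6 and ZK930.2, din-1 and ghi-1, sri-5 and ztf-6, unc-71 and cox-5A, chd-7 and W09C3.4, tam-1 and srsx-9, cutl-24 and tcl-2, C02B10.6 and pygo-1, gpb-1 and F44E5.4, and cutl-22 and cmd-1. Among these, unc-71 encodes an ADAM-type protein of axon guidance, pygo-1 a Pygopus protein of Wnt signalling, gpb-1 a G protein beta subunit and cmd-1 calmodulin. The strongest members in them ran from 80.6 at cutl-22/cmd-1 to 709.5 at ZK930.6/ZK930.2.

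Wnt signalling steers cell polarity and neuroblast migration in the worm, and 5 of the 26 autosomal Wnt pathway genes listed (19.2%, against the background of 3.5%) flanked a member, all 5 on the upstream side. These genes hold 11 members in 0.109 Mb of eligible sequence beside them, or 101 per Mb, against 19.4 per Mb over all autosomes. The strongest lay 14060 bp upstream of pop-1, the TCF transcription factor, with a signal of 273 (ranks 127 and 85), CAGATG and CAGCTG, and ccb-2 as its nearer neighbour at 1488 bp. At prkl-1, a Prickle-type planar polarity gene, a member of signal 273 (ranks 90 and 120) lay 11183 bp upstream and closer, at 1388 bp, to C25A8.5. A weaker prkl-1 member of signal 110.2 lay 1549 bp upstream. Upstream of wrm-1, a beta-catenin gene, 2 members of signal 175 and 93.9 lay at 1835 and 3376 bp, both with CAGATG. The Frizzled-type receptor gene cfz-2 had 3 members and the Dishevelled gene dsh-1 had 2, the stronger of signal 97.6 at 1079 bp.

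Cell cycle genes were beside 7 members in 0.0635 Mb of eligible sequence, or 110.0 per Mb, and 4 of the 24 listed (16.7%) flanked one. Of the 7 members, 3 were those inside the annotated span of cdc-25.2, which the rule counts as intergenic because no coding transcript covers them. Besides cdc-25.2, these were cki-1 and cki-2, neighbours that encode inhibitors of cyclin-dependent kinases, and cya-1, a cyclin A gene. The member 1547 bp upstream of cki-1 had a signal of 205 (ranks 144 and 307) and CAGATG. A pair of members of signal 128 and 103 stood between cki-1 and cki-2, downstream of cki-1 and 2970 and 3864 bp upstream of cki-2. The member at cya-1 had 92.2 and was matched in replicate 1 alone.

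The genes listed as neuronal transcription factors and the homeobox genes flanked members at 8 of 38 (21.1%) and 8 of 67 (11.9%). In members per eligible Mb that is 54.3 and 29.8, against 19.4 over all autosomes. The eligible sequence beside them was 6.78 and 5.51 kb a gene, where the 12 lists ranged from 1.56 to 6.78 kb. Divided over all 17242 autosomal coding genes it came to 1.13 kb a gene, with each stretch counted 1 time though it lies beside 2 genes. Among the neuronal factors, ztf-11 had 3 members around it (520.1 and 133 downstream, 99.2 upstream at 9080 bp) and egl-46 had 3. Upstream of ham-1, a gene of asymmetric neuroblast division, a member of signal 138 lay at 1152 bp with CAGATG. The ETS gene ast-1, which acts in dopaminergic neurons, had 2 members of signal 89.3 and 71.3. The other listed neuronal factors that flanked a member were sem-2 (80.2), egl-27 (76.4), dmd-3 (73.2) and zip-7. The members beside zip-7 (79.4 and 74.5) lay downstream of it, and a role of these genes in neurons was not tested. Of the homeobox genes, lim-7, ceh-43 and zag-1 had the strongest members, and the one at lim-7 lay 51 bp before a snoRNA gene. For the Hox pair lin-39 and ceh-13, the member between them was weak (80.4, ranks 1200 and 3797). Of 30 bHLH genes 2 flanked a member (6.67%, against the background of 3.5%), hlh-3 and sbp-1, both of signal under 85. Per eligible Mb the bHLH list had 11.4 members, under the 19.4 over all autosomes. The sbp-1 member lay 53 bp before a snoRNA gene.

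Guidance and adhesion genes flanked members at 5 of 32 (15.6%), with 29.2 members per eligible Mb, against 19.4 over all autosomes. Upstream of kpc-1, a furin-type convertase gene that shapes dendrite branching, a member of signal 252 (ranks 113 and 151) lay at 10903 bp. At sax-7, an L1CAM-type adhesion gene, the member at 7243 bp upstream had 174 (ranks 307 and 286) and CAGATG. The semaphorin gene smp-1 had one of 94.1 at 2665 bp. The members at the cadherin gene cdh-4 and the phosphatase gene ptp-3 were near the lowest ranked, at 74.2 and 71.7.

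The remaining lists were nearer to the background or under it. For Notch pathway genes it was 1 of 20, sup-17, an ADAM protease gene, with a member of signal 74.9. Nuclear hormone receptor genes gave 5 of 246 (2.03%), with nhr-102 (672, downstream and beside a snoRNA gene), nhr-41 (198), nhr-258 (174) and nhr-104 (91.0) the strongest. Chemoreceptor-type genes gave 14 of 1276 (1.10%). Among the strongest, str-56 (672, beside a snoRNA gene), sri-5 (297) and sra-13 (209) had their member on the downstream side. At srsx-8 the strongest member (507) was on the upstream side, at 19700 bp. Collagen genes gave 4 of 144 (2.78%), namely col-105, col-128 (beside a snoRNA gene), col-83 and col-88. Per eligible Mb the collagen list had 21.1 members, against 19.4 over all autosomes. Neuropeptide and insulin genes gave 2 of 107 (1.87%), ins-13 and nlp-46 (154). No basement membrane gene of 14 flanked a member.

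**Figure D5:**
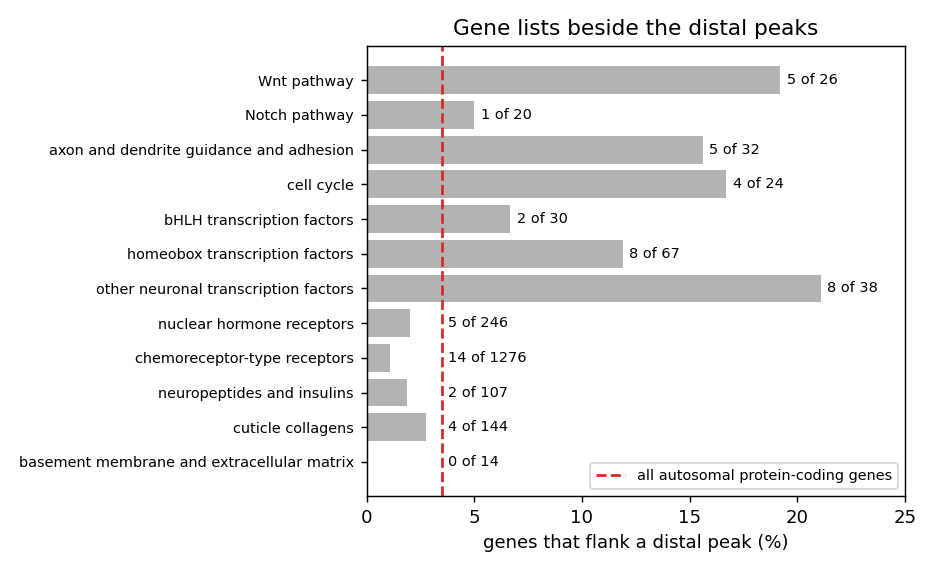
Percentage of the autosomal genes of each list that flank a distal peak (bars, with counts), and the same for all autosomal coding genes (dashed line at 3.5%). Wnt, guidance, cell cycle and the neuronal and homeobox transcription factor lists stand above the line by more than 3-fold, and the receptor, neuropeptide and collagen lists below it. Per eligible Mb the guidance and homeobox lists had 29.2 and 29.8 members, against 19.4 over all autosomes. The collagen list had 21.1, above that value, and the nuclear hormone receptor, chemoreceptor and neuropeptide lists had 8.52, 9.02 and 5.01. The lists were chosen with earlier results of these data known.

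Along the chromosomes, chromosome I held 82 members, II held 85, III held 68, IV held 75 and V held 66. Per eligible Mb that was 29.2, 23.7, 24.3, 15.0 and 12.6. Few had sequence in common with another member: 9 of 376 fell into 4 families of alike windows, the largest of 3, where reads may be split between copies. In 22 (5.85%) more than 50% of the summit window was repeat-masked, the same share as over all 2000.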

How the data were processed

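Peaks were measured by ChIP-seq in 2 replicates. The deposited lists hold a signal per peak from the authors' caller, in an unstated unit and comparable within a list only. Per the deposited derivation notes, 1 list was called per replicate and 1 on both together, all against the same control alignment. Replicate 1 had 30000 peaks, replicate 2 had 22601 nuclear peaks and the pooled list 26004. The pooled list is labelled as peaks and background, meant as input for IDR, so not every entry need be a bound site. Per the labels the coordinates are ce11. What aligner, caller and IDR threshold were used is not given in the sources used here. Read depth is unknown, and exact (Clopper-Pearson) 95% intervals cover counting over peaks only. Summits were placed with Ensembl release 115 for WBcel235 and the RefSeq genome of that build. No test was run, because the signal chose the members. Members and the 12 gene lists were chosen with earlier results of these data known. Genes named flank the 20 strongest members, share a gap with 3 members, or flank the 4 strongest members of a list. The genes cya-1, dsh-1, cdh-4, ptp-3, ham-1, ast-1, sem-2, zip-7, egl-27, dmd-3, lin-39, ceh-13 and F53H2.3 were named after their values were seen. Small RNA genes, their distances and the B box word were added after seeing the data. Alternatives covered ranks, promoter and tRNA distances, biotypes, matching, motif windows and single replicates. Searches were tested on simulated data. Python 3.11.15, numpy 2.4.6, pandas 2.3.3, scipy 1.17.1, matplotlib 3.10.9 and BLAST+ 2.17.0 were used.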

Additional observations from a re-analysis of the deposited data

How the results depend on the processing

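The number of members was 182 with the 1000 strongest pooled peaks, 702 with the 4000 strongest and 247 with a promoter of 2000 bp, and from 330 to 470 under the other 6 alternatives. The matched share was 95.6% and 82.6% for those depths, 68.9% with summits within 50 bp, 98.7% within 250 bp, 99.2% by any overlap and 73.1% against the 5000 strongest of each list. The hexamer share was 49.5% and 24.8% for those depths, 22.1% within 25 bp and 41.5% within 100 bp of the summit. The upstream share was 85.8% with the 2000 bp promoter, 84.8% with the nearest gene of any biotype, and 93.7% without members near snoRNA, snRNA or miRNA genes, an alternative added after seeing the data. The median distance to a 5′ end was 1832 bp with a 500 bp promoter and 3150 bp with 2000 bp. The snoRNA share was 8.79% with the 1000 strongest, and from 3.28 to 6.65% otherwise. Left alone, each replicate's own list gave values inside the interval or range of the main ones. No paired analysis was possible because there is 1 group. Read depth is not given, so precision per peak is unknown; 2 replicates, 1 strain and 1 control limit every value, and the levels of RNA were not measured.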

Other observations

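Some kinds of non-coding annotation lay beside the distal peaks more or less often than their share of eligible sequence. Genes of the ncRNA biotype lay within 500 bp of 88 of 376 members (23.4%, interval 19.2 to 28.0%) and of 7.34% of the eligible sequence. Pseudogenes lay within 500 bp of 17 members (4.52%, interval 2.66 to 7.14%) and of 17.2% of the eligible sequence, and piRNA genes of 24 members (6.38%) and 10.4%. Summits fell inside an annotated gene of any biotype in 46 members, 28 of them ncRNA genes and 8 pseudogenes. In 4 members the gene was a coding one, cdc-25.2 for 3 and F53H2.3 for 1, and the transcripts over those summits are annotated as non-coding. The B box word was in 11 members with no small RNA gene nearby. These included the cki-1 member of signal 205 and a cfz-2 member of signal 106, both weaker than most snoRNA members.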
